A study of Homo sapiens with 6 samples.

Results

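Prostaglandin (PG) levels in a cell depend on the supply of arachidonic acid, the enzymes that turn PGH2 into single prostanoids, the carriers that move prostanoids across the plasma membrane and the enzymes that break them down. Genes of these steps, 10 in all, were chosen by name, with earlier results of these data known. They were looked up in the RNA-seq counts of OVCAR-3 ovarian cancer cells with and without an shRNA targeting COX-1, the product of *PTGS1*. Of these 10 genes, 9 were found by symbol among the 34811 genes counted, 8 passed the filter on low counts together with 17309 genes in all, and *HPGD* did not pass it. *PLA2G4A*, the cytosolic phospholipase A2 that releases arachidonic acid from membrane phospholipids, was not analysed here.

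The parental OVCAR-3 cells are an established line of human ovarian carcinoma. OV3/COX1KD cells were stably transfected with the COX-1 pRS shRNA HuSH-29 plasmid, and OV3/SCR control cells carried a scrambled shRNA on the same vector, so both had undergone puromycin selection. Each cell line was sequenced as 3 libraries from separately harvested cell populations, of clone #2 of OV3/COX1KD and clone #1 of OV3/SCR. With 1 clone per condition, the effect of the shRNA and a difference between clones cannot be told apart, and p-values measure the spread between cultures of a clone. In bulk RNA, fewer cells expressing a gene and less RNA per cell cannot be told apart either.

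Background to the genes is as follows. COX-1 converts arachidonic acid to PGH2, which prostacyclin synthase (*PTGIS*) turns into prostacyclin and thromboxane synthase (*TBXAS1*) into thromboxane. *ABCC4* encodes MRP4, a pump that exports PGE2, and *SLCO2A1* encodes the prostaglandin transporter PGT, which takes it up again. Inside the cell, *HPGD* oxidizes PGE2 to an inactive keto form, and *PTGR1* and *PTGR2* then reduce the double bond of that product. *CBR1* and *AKR1C3* are carbonyl reductases that can make F-type prostaglandins, and *AKR1C3* also acts on steroids.

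Library totals lay between 25291505 and 27391538 counts, and the detection floor used here, 3 counts, corresponded to 0.113 to 0.120 CPM (a gene's counts relative to the library total, which was adjusted by the TMM factors of edgeR), a value that covers counting error only. All 10 markers of ovarian carcinoma epithelium fixed for the check, among them *EPCAM*, *PAX8* and *WT1*, were above 3 counts, with a summed level of 5766 to 5834 CPM in OV3/SCR and 7503 to 7698 in OV3/COX1KD. The single markers did not all follow the sum: 8 rose, led in absolute CPM by *KRT8*, while *PAX8* fell to 59.0% and *KRT7* to 90.6% of the control level (edgeR FDR = 4.3e-13 and 1.0e-04). The summed level of 7 fibroblast markers was 11.3 to 11.9 CPM in OV3/SCR and 6.87 to 7.50 in OV3/COX1KD. The other lists were found only in part among the genes counted. For 8 of 10 leucocyte and platelet markers the sum was 4.72 to 5.26 CPM in OV3/SCR and 5.37 to 6.27 in OV3/COX1KD. It was 2.57 to 3.30 and 2.95 to 3.64 for 4 of 5 endothelial markers. For 2 of 4 mast cell markers it was 0.938 to 1.19 and 0.601 to 0.718. All 34811 genes counted had a count in some library, so a marker at 0 throughout could not be among those found. Of the stromal and blood markers found, 6 were at or under 3 counts in each library. The targeted gene, *PTGS1*, was counted 713, 658 and 641 times in OV3/SCR and 456, 486 and 501 times in OV3/COX1KD. This left 73.3% of the control mRNA level (log2 fold change -0.45, standard error 0.057, edgeR FDR = 1.3e-06). The study picked this clone for its stronger loss of COX-1 protein and reported less prostaglandin made from added arachidonic acid. Counts of mRNA measure neither.

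Among the members, OV3/COX1KD cells held more mRNA of the transporters *ABCC4* and *SLCO2A1* and of prostacyclin synthase. They also held more of the keto-prostaglandin reductases *PTGR1* and *PTGR2* and of *AKR1C3*, and slightly less of *CBR1*. In the quasi-likelihood test of edgeR, adjusted over all tested genes by the Benjamini-Hochberg method, 7 of the 8 tested members passed an FDR of 0.01, as did 47.9% of all tested genes. Of the members 6 rose, beside 25.8% of all tested genes, and 1 fell, beside 22.1%, while *TBXAS1* did not pass. The median log2 fold change of the 8 was 0.37, beside -0.0087 over all tested genes. In each of the 8 the OV3/COX1KD libraries did not overlap the OV3/SCR libraries, which was so for 63.2% of all tested genes: 6 members were higher without overlap, beside 32.5% of genes, and 2 were lower, beside 30.7%. A log2 fold change above 0.5 was reached by *PTGIS*, *PTGR1* and *AKR1C3*, 3 of 8 members beside 9.87% of tested genes, and none was called below -0.5 in edgeR or DESeq2, beside 10.0%, *TBXAS1* lying there with an unadjusted edgeR p of 0.0201. None of the 8 passed the fold change of 2.5, beside 1.58% of tested genes that were past it as higher and 2.34% as lower.

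**Figure D1:**
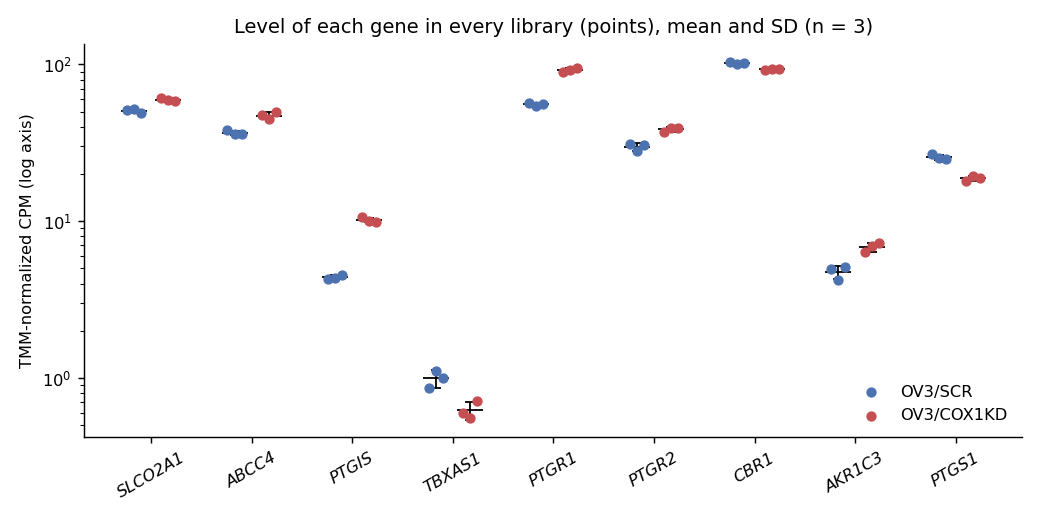
TMM-normalized CPM (log axis) of the 8 tested members and of *PTGS1* in the 3 OV3/SCR libraries (blue) and the 3 OV3/COX1KD libraries (red); bars are the mean and SD (n = 3). In no gene did the red and blue points overlap; *TBXAS1* was the lowest, at or under 1.11 CPM in each library.

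Of the synthases that use PGH2 among the members, *PTGIS* rose and *TBXAS1* did not pass the test. *PTGIS* (ENSG00000124212, chromosome 20 of GRCh37 from 48120411 to 48184674) was counted 114, 113 and 117 times in OV3/SCR and 266, 250 and 265 times in OV3/COX1KD. All OV3/COX1KD counts were more than those of any control library. Its level rose from 4.38 ± 0.130 to 10.2 ± 0.351 CPM (SD, n = 3), a fold change of 2.32 and the largest rise among the members (log2 fold change 1.21, standard error 0.093, edgeR FDR = 1.0e-09). A higher value was found in 1.96% of the tested genes.

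*TBXAS1* (ENSG00000059377, chromosome 7 from 139476850 to 139720125) was counted 23, 29 and 26 times in OV3/SCR and 15, 14 and 19 times in OV3/COX1KD. The counts were low and did not overlap. The level was 0.994 ± 0.125 CPM (SD, n = 3) in OV3/SCR and 0.623 ± 0.0806 in OV3/COX1KD (log2 fold change -0.67, standard error 0.26, edgeR FDR = 0.0357). In none of the 12 alternative settings did *TBXAS1* pass an FDR of 0.01, the values lying between 0.0189 and 0.127 in edgeR or DESeq2.

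Ratios of counts within a library do not depend on how libraries are scaled, and 6 were computed, chosen after the values of the genes were seen. For each count of *TBXAS1* there were 4.96, 3.90 and 4.50 counts of *PTGIS* in OV3/SCR and 17.7, 17.9 and 13.9 in OV3/COX1KD. *PTGIS* was also counted 0.160, 0.172 and 0.183 times per count of *PTGS1* in OV3/SCR and 0.583, 0.514 and 0.529 times in OV3/COX1KD. None of the 6 ratios overlapped between the cell lines, but each holds a gene that did not overlap by itself. For *PTGIS* per *TBXAS1*, and for *PTGIS* and *PTGR1* per *PTGS1*, the genes moved apart in opposite directions, which fixed the gap beforehand. The ratios are therefore no separate evidence, and the share without overlap among ratios of other genes was not computed. An exact two-sided permutation test of 3 against 3 libraries cannot give a p below 0.10, which was its value for each ratio, raw and adjusted over the 6.

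The transporters among the members, for both directions, rose. *ABCC4* (ENSG00000125257, chromosome 13 from 95672089 to 95953729) had 1012, 932 and 926 counts in OV3/SCR against 1195, 1119 and 1320 in OV3/COX1KD. This was a level of 36.5 ± 1.25 and 47.2 ± 2.46 CPM (SD, n = 3) and a fold change of 1.29 (log2 fold change 0.37, standard error 0.048, edgeR FDR = 1.7e-06). *SLCO2A1* (ENSG00000174640, chromosome 3 from 133651545 to 133771028) had 1365, 1353 and 1273 counts in OV3/SCR against 1548, 1482 and 1559 in OV3/COX1KD. The level of this uptake carrier rose from 50.8 ± 1.39 to 59.7 ± 1.58 CPM (SD, n = 3) or 1.18-fold (log2 fold change 0.23, standard error 0.041, edgeR FDR = 5.8e-05). There were 1.35, 1.45 and 1.37 counts of *SLCO2A1* per count of *ABCC4* in OV3/SCR and 1.30, 1.32 and 1.18 in OV3/COX1KD, lower in each OV3/COX1KD library by a small margin.

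The first of the breakdown enzymes was hardly counted. *HPGD* (ENSG00000164120, chromosome 4 from 175411326 to 175444305) was counted 0, 1 and 1 times in OV3/SCR and 0 times in each OV3/COX1KD library. Since all 6 libraries were under 3 counts, a fold change is not given, and a difference was not detectable at this depth. Without the filter on low counts its edgeR FDR was 0.405.

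The reductases of the next step among the members were well counted and rose. *PTGR1* (ENSG00000106853, chromosome 9 from 114312002 to 114362173) was counted 1506, 1411 and 1447 times in OV3/SCR and 2245, 2303 and 2524 times in OV3/COX1KD. From 55.5 ± 1.23 to 91.9 ± 2.77 CPM (SD, n = 3) its level rose 1.66-fold, with the smallest FDR of the members (log2 fold change 0.73, standard error 0.038, edgeR FDR = 3.1e-12). *PTGR2* (ENSG00000140043, chromosome 14 from 74318534 to 74352429) had 826, 729 and 795 counts in OV3/SCR against 926, 986 and 1048 in OV3/COX1KD. Its rise from 29.9 ± 1.68 to 38.5 ± 1.47 CPM (SD, n = 3) was 1.29-fold (log2 fold change 0.36, standard error 0.052, edgeR FDR = 5.7e-06). *PTGR1* was therefore counted more often per count of *PTGR2* in OV3/COX1KD, with ratios of 2.42, 2.34 and 2.41 against 1.82, 1.94 and 1.82. Per count of *PTGS1*, *PTGR1* had 2.11, 2.14 and 2.26 counts in OV3/SCR and 4.92, 4.74 and 5.04 in OV3/COX1KD.

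Across the 6 libraries the genes whose log2 CPM followed *PTGR1* most closely were *CA2*, *PEX2* and *RRM2B*, with Pearson r of at least 0.999. An r over 0.99 was found for 843 of the 17309 tested genes, and the points are the same 6 libraries throughout. Since *PTGR1* was taken for its smallest FDR, any gene with a similarly clean gap between the cell lines has an r near 1. The log2 fold changes of *CA2*, *PEX2* and *RRM2B* were 0.32, 0.74 and 0.73.

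The carbonyl reductases went in opposite directions. *CBR1* (ENSG00000159228, chromosome 21 from 37442239 to 37445464) was counted 2766, 2611 and 2642 times in OV3/SCR and 2307, 2347 and 2504 times in OV3/COX1KD. The fall was small, from 102 ± 1.79 to 93.1 ± 1.26 CPM (SD, n = 3), or 91.2% of the control level (log2 fold change -0.13, standard error 0.033, edgeR FDR = 0.00215). This call was lost without replicate 1 of OV3/SCR (edgeR FDR = 0.0181), without its replicate 3 (0.0147), without replicate 1 of OV3/COX1KD (0.0173) and with no filter on low counts (0.0220).

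*AKR1C3* (ENSG00000196139, chromosome 10 from 5077546 to 5149878) had 132, 110 and 131 counts in OV3/SCR and 160, 173 and 192 in OV3/COX1KD. It rose from 4.75 ± 0.459 to 6.82 ± 0.430 CPM (SD, n = 3), a fold change of 1.44 (log2 fold change 0.52, standard error 0.11, edgeR FDR = 3.4e-04). The estimate went below the log2 fold change of 0.5 with total count scaling (0.45) and without OV3/SCR replicate 2 (0.45) or OV3/COX1KD replicate 3 (0.48), with an FDR under 0.01 each time.

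**Figure D2:**
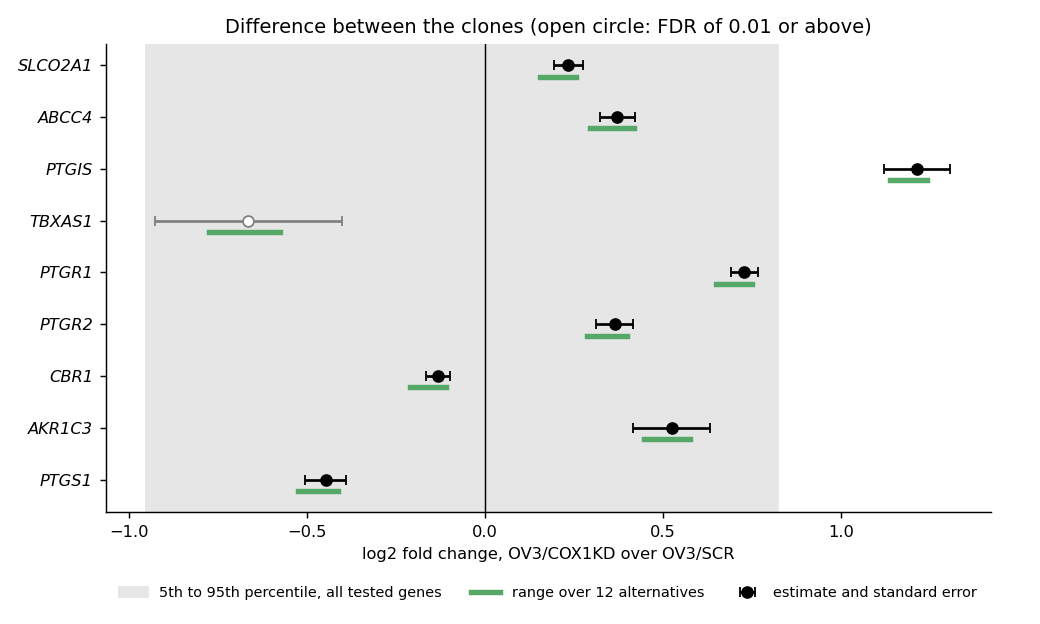
Log2 fold change of OV3/COX1KD over OV3/SCR for the 8 tested members and *PTGS1* (circles, with the standard error), and its range over 12 alternative settings (green). The grey band holds the log2 fold changes between the 5th and 95th percentile of all 17309 tested genes, -0.95 to 0.82; *PTGIS* lies outside it at 1.21, and the open circle of *TBXAS1* did not pass an FDR of 0.01.

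*AKR1C3* has near copies, so its reads could be shared between genes. The coding sequence of *AKR1C3* was 91.4% identical to that of *AKR1C1* and 91.0% to that of *AKR1C2*, and these were 98.0% identical to each other. Its first 90 coding bases and those of the copies are shown to let the closeness be seen (GENCODE 44 transcripts, capitals mark bases that differ from *AKR1C3*, 11 in *AKR1C1* and 10 in *AKR1C2*).
AKR1C3: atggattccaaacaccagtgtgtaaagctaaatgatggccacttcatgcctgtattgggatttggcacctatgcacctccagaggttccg
AKR1C1: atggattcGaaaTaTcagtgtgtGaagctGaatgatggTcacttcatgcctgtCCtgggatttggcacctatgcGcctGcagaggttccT
AKR1C2: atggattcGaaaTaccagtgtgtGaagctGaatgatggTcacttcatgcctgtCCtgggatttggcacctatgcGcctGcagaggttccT

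Of the windows of 50 bases in the *AKR1C3* transcript, 18.6% occurred unchanged in transcripts of another gene, most often *AKR1C2*. *AKR1C1* was counted 40, 34 and 34 times in OV3/SCR and 31, 39 and 31 times in OV3/COX1KD (log2 fold change -0.064, edgeR FDR = 0.809). *AKR1C2* had 16, 23 and 13 counts against 14, 17 and 15 (log2 fold change -0.14, edgeR FDR = 0.706). Of the counts of the 3 copies together, *AKR1C3* took 70.2%, 65.9% and 73.6% in OV3/SCR and 78.0%, 75.5% and 80.7% in OV3/COX1KD. The values of all 3 copies are uncertain where the counting split or dropped shared reads.

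For the other members the share of such windows was 28.6% in *CBR1*, 28.5% in *PTGR2*, 1.35% in *PTGR1* and 1.07% in *PTGIS*, and 0 in *SLCO2A1*, *ABCC4*, *TBXAS1* and *HPGD*. In *PTGR2* most of them lay in a read-through gene (ENSG00000258653) that was counted at most 8 times in any library. The value of *PTGR2* is uncertain where the counting split or dropped reads shared with this gene, and the low count does not settle that. In *CBR1* the shared windows lay in a long non-coding RNA (ENSG00000289001) annotated inside the same locus. Another gene on the opposite strand, AP000688.14, covered 18.9% of the exon length of *CBR1* and had at most 6 counts, and *ZNF483* covered 2.07% of that of *PTGR1* and had 20 to 43 counts. The kit named in the labels does not mark strand, so reads from such overlaps cannot be assigned to a strand.

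Levels can be compared between genes only per length, and were divided by the exon length of each gene in GENCODE 44 lifted to GRCh37, which may differ from the annotation of the counting. In OV3/SCR cells *CBR1* was the highest member, at 41.7 ± 0.729 CPM per kb (SD, n = 3), above 94.7% of the 16800 tested genes with a length. *PTGR1* followed at 14.7 ± 0.327 and *SLCO2A1* at 9.91 ± 0.270 CPM per kb. *PTGS1* at 4.43 ± 0.177, *PTGR2* at 4.28 ± 0.240 and *ABCC4* at 4.23 ± 0.145 CPM per kb overlapped one another. Below them stood *AKR1C3* at 1.21 ± 0.117, *PTGIS* at 0.786 ± 0.0234 and *TBXAS1* at 0.161 ± 0.0203 CPM per kb, each apart from the next in every library. *TBXAS1* was above 6.25% of the genes.

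In OV3/COX1KD cells *CBR1*, *PTGR1* and *SLCO2A1* were again the highest, at 38.0 ± 0.513, 24.4 ± 0.734 and 11.6 ± 0.308 CPM per kb (SD, n = 3). *PTGS1* went from rank 4 to rank 6 among the 9 genes, at 3.25 ± 0.110 CPM per kb, behind *PTGR2* at 5.51 ± 0.211 and *ABCC4* at 5.47 ± 0.285. *PTGIS* at 1.82 ± 0.0630 and *AKR1C3* at 1.74 ± 0.110 CPM per kb overlapped in this cell line, where they had been apart in the control.

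**Figure D3:**
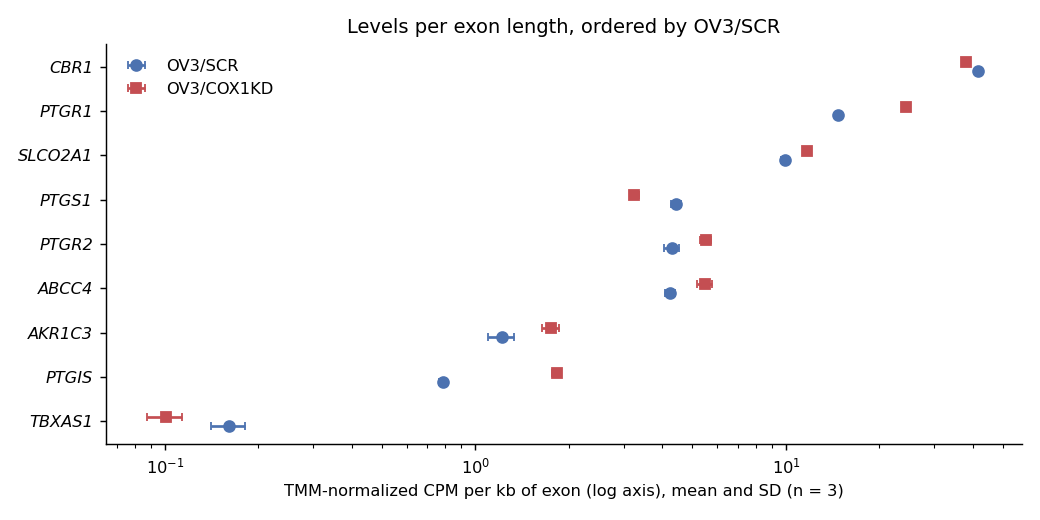
Level per exon length (TMM-normalized CPM per kb, log axis, mean and SD, n = 3) of the 8 tested members and *PTGS1*, in the order of the OV3/SCR levels (blue circles), with OV3/COX1KD as red squares. *CBR1* was highest in both cell lines and *TBXAS1* lowest, and *PTGS1* moved from 4.43 to 3.25, below *PTGR2* and *ABCC4*.

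Because each condition is 1 clone, the tested genes within 1 Mb of each member whose mean log2 CPM reached 1 were described as well, beside 25.8% of all tested genes that were higher and 22.1% that were lower. The neighbours given by name were chosen after their values were seen, except *CBR3*, a near copy. Around *CBR1*, 7 of 10 such genes were lower and 3 higher at an FDR under 0.01, with a median log2 fold change of -0.29. Its paralogue *CBR3*, another carbonyl reductase gene 0.0651 Mb away, was among the lower ones, with 85, 90 and 91 counts in OV3/SCR against 49, 53 and 60 in OV3/COX1KD (log2 fold change -0.68, standard error 0.15, edgeR FDR = 5.2e-04). The coding sequences of *CBR1* and *CBR3* were 79.8% identical.

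Around *PTGIS*, 8 of 17 genes were higher and 4 lower with a median of 0.031, and *B4GALT5*, a galactosyltransferase gene, was among the higher ones with a log2 fold change of 1.11. Around *PTGR1*, 3 of 10 genes were higher and 1 lower with a median of 0.19, the nearest value to its own being that of *LPAR1* (0.70). Around *PTGR2*, 11 of 27 were higher and 6 lower with a median of 0.12. The medians were 0.037 for 8 genes around *AKR1C3*, 0.020 for 10 around *SLCO2A1*, 0.010 for 7 around *ABCC4* and -0.075 for 19 around *TBXAS1*. The part of a local difference between the clones in these results was not tested.

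**Figure D4:**
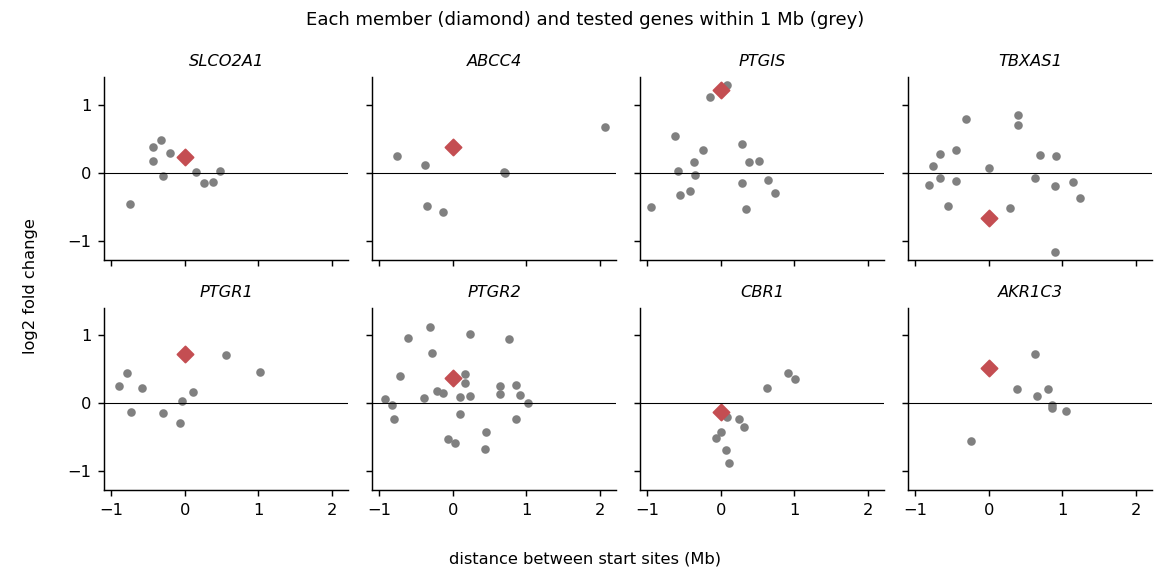
Log2 fold change (OV3/COX1KD over OV3/SCR) of each tested member (red diamond) and of the tested genes within 1 Mb of it (grey), against the distance between start sites in the direction of transcription. Around *CBR1* 7 of 10 genes lay below 0, with a median of -0.29, and around *PTGIS* 9 of 17 lay above 0, with a median of 0.031.

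Sequences upstream of the start site are shown for *PTGR1* and *PTGR2*, which catalyse the same step and had log2 fold changes of 0.73 and 0.36, and for *CBR1*, the member that fell. They are the 250 bases before the start in RefSeq's table for GRCh38.p14, whose coordinates differ from those of GRCh37 given for the genes. Capitals mark matches, on either strand, to the cAMP response element core TGACG, the antioxidant response element core TGACNNNGC, the GC box GGGCGG and the TATA box TATAAA.
PTGR1, chr9:111599432-111599681, minus strand: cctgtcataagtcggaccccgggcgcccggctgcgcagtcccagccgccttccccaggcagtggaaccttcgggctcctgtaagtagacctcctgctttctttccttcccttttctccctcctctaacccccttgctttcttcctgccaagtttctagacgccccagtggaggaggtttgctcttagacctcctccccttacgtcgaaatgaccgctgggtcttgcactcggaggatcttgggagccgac
PTGR2, chr14:73851581-73851830, plus strand: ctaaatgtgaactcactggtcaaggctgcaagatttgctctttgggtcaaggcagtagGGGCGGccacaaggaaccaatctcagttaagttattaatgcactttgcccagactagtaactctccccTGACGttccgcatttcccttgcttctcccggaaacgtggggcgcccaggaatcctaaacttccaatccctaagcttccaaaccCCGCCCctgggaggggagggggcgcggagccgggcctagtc
CBR1, chr21:36069774-36070023, plus strand: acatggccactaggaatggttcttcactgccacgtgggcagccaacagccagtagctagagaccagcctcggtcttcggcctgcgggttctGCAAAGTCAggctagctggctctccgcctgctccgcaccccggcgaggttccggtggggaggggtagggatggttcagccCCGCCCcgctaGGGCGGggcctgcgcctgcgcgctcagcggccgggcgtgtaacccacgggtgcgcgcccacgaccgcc

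The window of *PTGR1* held no match to any of the 4 motifs. That of *PTGR2* held the cAMP core at 124 bases and GC boxes at 192 and 41 bases before the start, and that of *CBR1* held the antioxidant core at 159 bases and GC boxes at 79 and 68 bases. The table had 11 windows for 8 of the 10 members, *PTGIS* and *SLCO2A1* having no entry. The cAMP core was in windows of *ABCC4*, *PTGR2* and *HPGD*, the antioxidant core in those of *ABCC4*, *CBR1* and *TBXAS1*, the GC box in those of *CBR1*, *PTGR2* and *HPGD*, and the TATA box in those of *AKR1C3* and *TBXAS1*. In *ABCC4* the cAMP core and the antioxidant core overlapped. Over all 35116 windows of the table these motifs were found in 21.2%, 10.9%, 42.6% and 10.7%.

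Genes of the wider pathway were called in both directions. Of 124 other genes of arachidonic acid and prostanoid metabolism, listed by their roles, 77 were tested, of which 27 rose, 19 fell and 31 did not pass an FDR of 0.01. These counts, and those of the lists that follow, stand beside 25.8% of all tested genes that rose and 22.1% that fell. Their median log2 fold change was -0.048, beside -0.0087 over all tested genes.

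Of 22 tested genes that release and handle arachidonic acid 5 rose, beside 25.8% of all tested genes, and 9 fell, beside 22.1%, with a median log2 fold change of -0.10. *ACSL5*, an acyl-CoA synthetase, fell by 1.72 on the log2 scale (edgeR FDR = 7.0e-08), *FADS2*, the desaturase that starts the synthesis of arachidonic acid, by 1.01 (4.0e-13) and *MGLL*, monoacylglycerol lipase, by 0.78 (6.2e-04). The secreted phospholipase gene *PLA2G12A* rose, with a log2 fold change of 0.58 (edgeR FDR = 4.2e-10).

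Among other prostanoid synthases 4 of 7 tested genes rose and 2 fell, with a median of 0.41. *PTGES3*, a cytosolic PGE synthase, had a log2 fold change of -0.51 (edgeR FDR = 6.9e-12), and *FAM213B*, a prostamide and PGF synthase, one of 0.41 (1.2e-05). The glutathione transferases *GSTM3* and *GSTM2* had log2 fold changes of 0.60 (edgeR FDR = 3.0e-07) and 0.47 (5.2e-04), the latter uncertain because the *GSTM* genes are close copies. The largest value, chosen for mention after it was seen, was that of *PTGDS*, a PGD synthase, with 8, 8 and 9 counts in OV3/SCR against 66, 93 and 83 in OV3/COX1KD (log2 fold change 3.29, standard error 0.25, edgeR FDR = 7.9e-10).

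Other transporters were divided, with 3 of 12 tested genes higher and 4 lower and a median of -0.28. *SLCO3A1*, an organic anion carrier that also takes up prostaglandins, was counted 603, 607 and 596 times in OV3/SCR and 1444, 1325 and 1541 times in OV3/COX1KD (log2 fold change 1.29, standard error 0.049, edgeR FDR = 2.9e-14). The export pump genes *ABCC3* and *ABCC5*, relatives of *ABCC4*, had log2 fold changes of -1.67 (edgeR FDR = 1.8e-08) and -0.72 (5.6e-13). *ABCC6*, which has pseudogene copies and is uncertain for that reason, had one of 0.45 (edgeR FDR = 0.00791).

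Other reductases and breakdown enzymes rose in 5 and fell in 3 of 15 tested genes, with a median of -0.058. Apart from *CBR3*, the aldo-keto reductase *AKR1B10* fell by 0.84 on the log2 scale (edgeR FDR = 7.3e-09), while *CBR4*, a mitochondrial carbonyl reductase, and *ACOT8*, a peroxisomal thioesterase, had log2 fold changes of 0.47 (1.6e-08) and 0.31 (1.4e-04). The list of prostanoid receptors also held nuclear receptors and a receptor partner. Of its 6 tested genes 2 rose and none was called lower, with a median of 0.12. The risers were the PGE2 receptor *PTGER2*, at a log2 fold change of 1.28 (edgeR FDR = 3.1e-09), and *PTGFRN*, a partner of the PGF receptor, at 0.45 (1.1e-08). The study of these data reported *PTGER1* and *PTGER4* as down-regulated. Here *PTGER4* had a log2 fold change of -0.45 (edgeR FDR = 0.0388), and *PTGER1*, with 0 to 8 counts per library, was not tested.

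In other branches of arachidonic acid metabolism 8 of 15 tested genes rose and 1 fell, with a median of 0.23. *ALOX15*, a lipoxygenase, was counted 54, 46 and 38 times in OV3/SCR and 129, 120 and 125 times in OV3/COX1KD (log2 fold change 1.47, standard error 0.15, edgeR FDR = 4.8e-08). *EPHX2*, soluble epoxide hydrolase, had a log2 fold change of 0.82 (edgeR FDR = 1.3e-11) and *GGT1*, a gamma-glutamyltransferase with close gene copies and therefore uncertain, one of 0.66 (4.2e-04). The gene of this group that fell was *LTB4R*, a receptor of the leukotriene LTB4, with a log2 fold change of -0.76 (edgeR FDR = 1.9e-09).

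**Figure D5:**
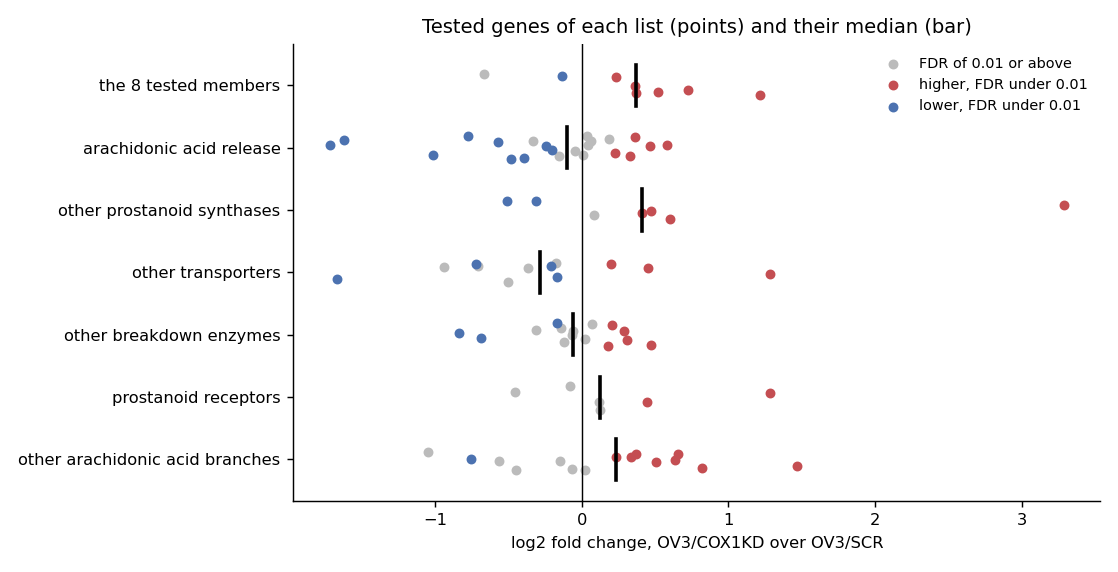
Log2 fold change (OV3/COX1KD over OV3/SCR) of the tested genes in each list, as points coloured by call (red higher, blue lower, grey not past an FDR of 0.01), with the median as a bar. The 8 members have a median of 0.37, the 22 genes of arachidonic acid release one of -0.10, and *PTGDS* stands far to the right at 3.29.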

How the data were processed

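RNA of 3 OV3/SCR and 3 OV3/COX1KD cultures was sequenced on an Illumina instrument. The authors aligned reads to hg19 (GRCh37) with TopHat2 (version 2.0 in the submitters' processing notes), used HTSeq for counting by gene, and the table they deposited holds raw counts without normalization. The gene annotation and strand setting are not given in the sources used here. Library totals lay between 25291505 and 27391538 counts.

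The tests used edgeR 4.0.16 (R 4.3.3) with filterByExpr, TMM factors, and glmQLFit and glmQLFTest for the cell line, and Benjamini-Hochberg adjustment over 17309 genes. The standard error is the log2 fold change divided by the square root of F. A call here is an FDR under 0.01 alone; the study joined that limit to a fold change over 2.5, or in its coloured displays to a log2 fold change beyond 0.5, and counts with those sizes are given too. Pairs of libraries of a condition differed by more than sampling noise (chi-square per degree of freedom 1.74 to 5.74). Identity of near copies was planned on proteins and computed on GENCODE coding sequences. The scripts were tested on simulated data in which far fewer genes changed than were called here. That simulation does not cover a difference this broad. Alternatives were RLE and total count scaling, no filter, DESeq2 1.42.0, a minimum of 10 counts per library, the replicate block and leaving out each library.

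Members and lists were chosen with earlier results of these data known. Named genes are all members, *PTGS1*, near copies of members and the 3 genes most correlated with the member of smallest FDR. Up to 4 called genes per list with the largest change and a mean log2 CPM of at least 1 are named too. *PTGDS*, *B4GALT5*, *LPAR1* and the markers named singly were outside this rule and chosen after their values were seen. *PTGER1* and *PTGER4* are named because the study reported them, and genes that overlap members are named for their position. Positions and lengths are from GENCODE 44 lifted to GRCh37, which held 33556 of the 34811 genes.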

Additional observations from a re-analysis of the deposited data

How the results depend on the processing

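The 6 rises, *SLCO2A1*, *ABCC4*, *PTGIS*, *PTGR1*, *PTGR2* and *AKR1C3*, kept their direction and an FDR under 0.01 in all 12 alternatives, with log2 fold changes of 0.16 to 0.26, 0.29 to 0.42, 1.14 to 1.24, 0.65 to 0.75, 0.29 to 0.40 and 0.45 to 0.58. *PTGS1* stayed between -0.53 and -0.41. The exception was *CBR1*, which had a log2 fold change of -0.11 with no filter on low counts (edgeR FDR = 0.0220) and of -0.14 to -0.12 with a library left out, so that 0 members, not 1, were lower with no filter and 0 to 1 with a library left out; the cause was not tested. The replicate block (FDR of *CBR1* 0.00359, of *TBXAS1* 0.0470) changed no call of a member. The labels number the libraries 1 to 3 in each cell line and speak of replicate pairs, but the deviations of same-numbered libraries correlated at 0.0045, 0.042 and 0.0090 across genes, and 2 of 6 libraries correlated best with their own number, so the numbers were not taken as a pairing. Over the alternatives 3466 to 4903 genes rose and 3161 to 4978 fell. Counts as low as those of *TBXAS1* and *HPGD* limit what can be detected at this depth.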
